A study of Mus musculus with 10 samples.

Results

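The insulin-like growth factor (IGF) axis was followed in whole skin of mice with imiquimod-induced psoriasis-like inflammation, as 10 genes that encode its ligands, receptors and binding proteins, Igf1, Igf2, Igf1r, Igf2r, Igfbp2, Igfbp3, Igfbp4, Igfbp5, Igfbp6 and Igfbp7. The list was chosen by the measured rise of Igfbp5 with quinpirole. Its relatives were added by family and not for their own values, though earlier results of these data were known by then. All 10 were among the 17016 gene symbols of the table, and all reached the level needed for testing. The quinpirole group was 5 libraries from female BALB/c mice aged 10 to 11 weeks, given imiquimod as a 5% cream on shaved back skin daily for 5 days and quinpirole, which activates the dopamine receptor DRD2, by 5 intraperitoneal injections. The vehicle group was 5 libraries from mice of the same sex, strain and age under the same imiquimod cream. Imiquimod activates the innate receptor TLR7, and as both groups received it, the comparison does not include uninflamed skin. The labels number the samples and do not name separate mice, so each p-value is measured against the spread among libraries, which may not be the spread among mice.

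IGF-I and IGF-II act through IGF1R, a receptor tyrosine kinase that signals through PI3K and AKT and through RAS and ERK. IGF2R, the mannose 6-phosphate receptor, takes up IGF-II for degradation in lysosomes. Secreted IGF binding proteins hold the ligands in a complex and either withhold them from the receptor or carry them to it, and IGFBP-5 also binds extracellular matrix and heparin-like chains. In skin, IGF-I is made largely by dermal cells, including those of the dermal papilla, while keratinocytes carry IGF1R.

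Promoter windows are shown for the 3 genes whose groups did not overlap between quinpirole and vehicle, and for Igfbp4, the member that moved most closely with hair genes. Each runs from 250 bases before to 50 bases after a RefSeq transcription start on GRCm38.p6, the assembly also called mm10, and is written 5′ to 3′ on the gene's own strand. The windows are chr1:72874816-72875115 on the minus strand for Igfbp5, chr10:87860861-87861160 on the plus strand for Igf1, chr15:102143936-102144235 on the plus strand for Igfbp6 and chr11:99040994-99041293 on the plus strand for Igfbp4. Capitals mark a match to a searched motif on either strand.
Igfbp5: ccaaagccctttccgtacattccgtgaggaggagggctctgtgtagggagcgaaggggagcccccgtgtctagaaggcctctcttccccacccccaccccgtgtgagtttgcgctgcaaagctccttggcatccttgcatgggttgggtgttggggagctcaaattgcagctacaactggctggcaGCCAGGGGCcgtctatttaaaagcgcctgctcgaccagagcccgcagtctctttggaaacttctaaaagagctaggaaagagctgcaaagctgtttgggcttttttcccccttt
Igf1: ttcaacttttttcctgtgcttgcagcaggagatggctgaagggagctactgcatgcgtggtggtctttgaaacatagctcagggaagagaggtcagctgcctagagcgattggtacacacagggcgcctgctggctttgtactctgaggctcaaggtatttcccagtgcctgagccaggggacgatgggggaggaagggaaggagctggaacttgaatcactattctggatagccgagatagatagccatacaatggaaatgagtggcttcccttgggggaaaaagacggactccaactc
Igfbp6: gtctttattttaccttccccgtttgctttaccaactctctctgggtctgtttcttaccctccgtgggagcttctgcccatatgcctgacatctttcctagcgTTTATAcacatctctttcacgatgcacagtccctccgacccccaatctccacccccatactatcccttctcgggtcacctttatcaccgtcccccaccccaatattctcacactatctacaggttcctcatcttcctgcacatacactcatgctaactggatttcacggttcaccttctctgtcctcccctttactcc
Igfbp4: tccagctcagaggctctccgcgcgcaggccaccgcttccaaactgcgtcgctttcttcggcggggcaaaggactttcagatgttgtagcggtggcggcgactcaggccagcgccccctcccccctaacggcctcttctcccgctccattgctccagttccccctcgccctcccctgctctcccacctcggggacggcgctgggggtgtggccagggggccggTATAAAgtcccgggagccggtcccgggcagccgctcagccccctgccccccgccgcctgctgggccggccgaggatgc

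Of the 7 motifs searched on both strands, GCCNNNGGC, the letters bound by AP-2 factors, was found in the Igfbp5 window at base -64, counted from the start. It occurs in 16.6% of 32851 mouse windows of this length. TATAAA, the core of a TATA box, was found at base -28 in the Igfbp4 window and, on the opposite strand, at base -148 in the Igfbp6 window, and occurs in 13.6% of windows. The other letters were GGGCGG (35.7% of windows), the E-box CACGTG (7.15%), the cAMP response element TGACGTCA (1.79%), the D-box TTATGTAA (0.938%) and the forkhead site GTAAACA (3.65%). None of these 5 was found in the 4 windows shown, and the Igf1 window held none of the 7. No shared match was therefore present in the windows of Igfbp5, Igf1 and Igfbp6. The Igfbp6 window ends at base 102144235, before the gene start at 102144362 in the GENCODE M21 annotation. The Igf1 window begins at base 87860861, inside the gene, which starts at 87858265 in that annotation. The annotated starts of these 2 genes were thus not searched, and the lack of a shared match covers the windows only. The matches overlap no other motif in these windows, and they describe letters only.

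Igfbp5 was expressed in every library and was higher in each quinpirole library than in any vehicle library. It measured 183.5, 255.0, 181.0, 195.9 and 220.7 normalised CPM (reads scaled to library size, as the authors deposited them) in quinpirole replicates 1 to 5, against 104.2, 83.0, 119.6, 82.8 and 99.97 CPM in vehicle replicates 1 to 5. Quinpirole replicate 2 was the highest library and vehicle replicates 2 and 4 the lowest, and the lowest quinpirole library stood 1.51-fold above the highest vehicle library. The means were 207.2 ± 31.0 CPM with quinpirole and 97.9 ± 15.5 CPM in vehicle (SD, n = 5 each), a ratio of 2.12. The log2 fold change, quinpirole minus vehicle after adding 1 to each CPM, was 1.08 with SE 0.13. These are the values that chose the list, and they are given as a description with no test. The counts behind them were 1328 to 1751 reads per quinpirole library and 583 to 913 per vehicle library.

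**Figure D1:**
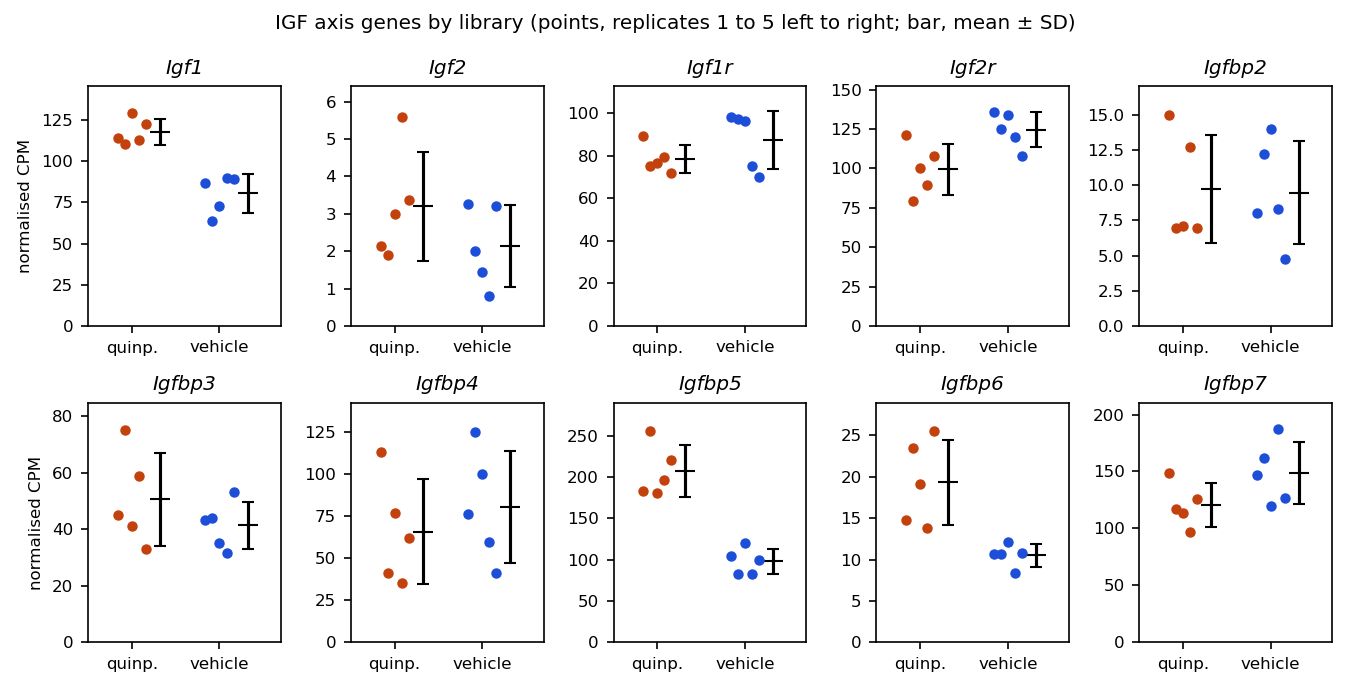
Normalised CPM of the 10 IGF axis genes in each library, quinpirole on the left and vehicle on the right of each panel, with bars for the mean and SD of 5 libraries. Igfbp5, Igf1 and Igfbp6 have all quinpirole points above all vehicle points, while the points of the other 7 genes overlap.

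Over 27 alternatives the log2 fold change of Igfbp5 ran from 0.998 without quinpirole replicate 2 to 1.15 without vehicle replicate 3. Each alternative refits the values that chose the list, so this range is a description and no support for the rise.

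Among the ligands, Igf1 was also higher in every quinpirole library. It measured 113.8, 110.7, 129.1, 112.9 and 122.3 CPM in quinpirole replicates 1 to 5, against 86.9, 63.5, 72.6, 89.8 and 89.35 CPM in vehicle replicates 1 to 5. The lowest values were those of vehicle replicates 2 and 3, and the quinpirole libraries lay close together, with a coefficient of variation of 6.54% against 14.7% in vehicle. Means were 117.8 ± 7.71 CPM with quinpirole and 80.4 ± 11.8 CPM in vehicle (SD, n = 5 each), and the log2 fold change of 0.56 (95% interval 0.32 to 0.79) did not pass the test over all genes (limma adjusted p = 0.126). Igf2, the ligand made mainly before birth, was the lowest member at 13 to 44 reads per quinpirole library and 6 to 26 per vehicle library. It measured 2.14, 1.89, 2.999, 5.60 and 3.36 CPM in quinpirole replicates 1 to 5, against 3.27, 1.99, 1.44, 0.793 and 3.22 CPM in vehicle replicates 1 to 5. The groups overlapped, and the log2 fold change was 0.43 (95% interval -0.19 to 1.05; limma adjusted p = 0.605). Quinpirole replicate 4, the highest library for Igf2, was also the highest for the skeletal muscle list described below. With that list as a covariate the sign turned, to -0.18 (limma adjusted p = 0.915). The muscle list was itself higher with quinpirole, so the covariate and the group cannot be told apart, and the cause was not tested.

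The receptors were lower on average with quinpirole, and neither passed the test. Igf2r measured 121.0, 79.4, 100.04, 89.4 and 107.7 CPM in quinpirole replicates 1 to 5, against 135.5, 125.3, 133.7, 119.9 and 108.1 CPM in vehicle replicates 1 to 5. The groups overlapped through quinpirole replicate 1 and vehicle replicates 4 and 5, and the log2 fold change was -0.33 (95% interval -0.58 to -0.08; limma adjusted p = 0.300). Igf2r overlaps the noncoding antisense gene Airn, which averaged 2.31 CPM with quinpirole and 2.96 CPM in vehicle. Without strand in the counting, reads of the pair could not be told apart. The annotated spans of Igf1, Igf2 and Igfbp7 also overlap other genes, and the extent of those overlaps was not examined. Igf1r averaged 78.4 ± 6.62 CPM with quinpirole and 87.4 ± 13.6 CPM in vehicle (SD, n = 5 each), with a difference on the log2 scale of -0.14 (95% interval -0.39 to 0.10; limma adjusted p = 0.672). In vehicle its values were 98.1, 97.4 and 96.2 CPM in replicates 1 to 3 and 75.2 and 70.1 CPM in replicates 4 and 5, so the spread within vehicle was wider than the difference between groups.

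Of the other binding proteins, Igfbp6, whose product prefers IGF-II, had separate groups. It measured 14.75, 23.45, 19.1, 13.9 and 25.45 CPM in quinpirole replicates 1 to 5, against 10.7, 10.7, 12.1, 8.32 and 10.8 CPM in vehicle replicates 1 to 5. Quinpirole replicates 2 and 5 were the highest and replicates 1 and 4 the lowest of that group, while the vehicle libraries were close together. Means were 19.3 ± 5.13 CPM with quinpirole and 10.5 ± 1.35 CPM in vehicle (SD, n = 5 each), which is 0.79 on the log2 scale (95% interval 0.41 to 1.17; limma adjusted p = 0.169). Igfbp7, which binds IGFs weakly and insulin more strongly than other family members do, was the member with the most reads in vehicle. It measured 148.7, 117.2, 113.3, 96.7 and 126.3 CPM in quinpirole replicates 1 to 5, against 146.7, 161.6, 120.0, 186.9 and 126.8 CPM in vehicle replicates 1 to 5, and the groups overlapped (log2 fold change -0.29, 95% interval -0.60 to 0.01; limma adjusted p = 0.457).

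Igfbp3, which carries most IGF in blood, ranged from 33.1 to 74.9 CPM with a median of 44.8 CPM with quinpirole, against 31.7 to 53.0 CPM with a median of 43.3 CPM in vehicle (log2 fold change 0.25, 95% interval -0.20 to 0.70; limma adjusted p = 0.695). Igfbp4, an inhibitor of IGF action that the protease PAPP-A cleaves, ranged from 35.5 to 113.3 CPM with quinpirole and from 41.1 to 125.3 CPM in vehicle (log2 fold change -0.31, 95% interval -1.05 to 0.43; limma adjusted p = 0.777). Igfbp2 ranged from 6.97 to 15.0 CPM with quinpirole and from 4.75 to 14.0 CPM in vehicle (log2 fold change 0.05, 95% interval -0.58 to 0.67; limma adjusted p = 0.969). Igfbp2 lies beside Igfbp5 on chromosome 1, on the opposite strand, with 5457 bases between the ends of the genes. Its groups overlapped where those of Igfbp5 did not, and the next gene with values, Rpl37a, 144 kb away, stood at -0.17 (limma adjusted p = 0.809). The intervals of Igfbp2 and Igfbp4 were the widest among the binding proteins, and their coefficients of variation were 39.3% and 47.4% with quinpirole and 38.8% and 41.2% in vehicle.

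In all, 0 of the 9 members other than Igfbp5 were called by limma, where 0.0206% of all genes were, and 3 of the 9 had an unadjusted p under 0.05, where 11.4% of all genes did. Groups did not overlap, with quinpirole higher, for Igf1 and Igfbp6 beside Igfbp5, and for 1.34% of all genes tested, and no member stood wholly lower, where 0.859% of genes did. As the list was drawn from this same contrast, its counts are not evidence about the axis. The call on Igf1 and Igfbp6 depended on the tool. On recovered reads, DESeq2 called 1.51% of tested genes and 2 of the 9 members, Igf1 (log2 fold change 0.55, DESeq2 adjusted p = 5.79e-04) and Igfbp6 (0.87, DESeq2 adjusted p = 0.005), whereas edgeR called neither (0.54, edgeR adjusted p = 0.117, and 0.87, edgeR adjusted p = 0.166). With array weights, which give less weight to libraries that deviate more, limma called Igf1 (0.60, adjusted p = 0.042). Over all alternatives the log2 fold change of Igf1 lay between 0.47 and 0.68 and that of Igfbp6 between 0.63 and 0.90.

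**Figure D2:**
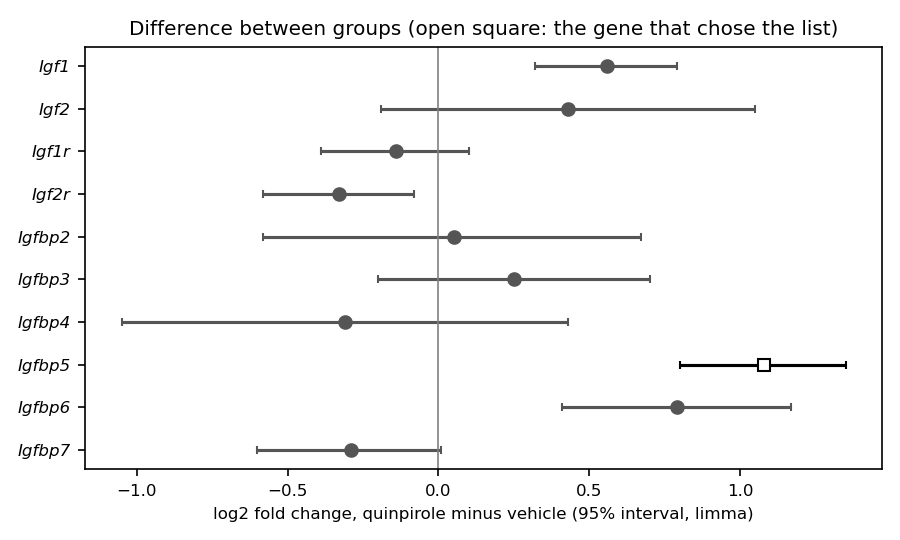
Log2 fold change of each IGF axis gene, quinpirole minus vehicle, with its 95% interval from limma over 5 libraries per group. Igfbp5 (open square) chose the list and is drawn as a description. Among the other 9, the intervals of Igfbp6 and Igf1 lie above 0, that of Igf2r lies below it and the rest include 0, and none of the 9 passed the test adjusted over all genes.

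Levels of different genes were compared per kilobase of the longest coding transcript in GENCODE M21. Igfbp7 was the most abundant member at 100.4 ± 15.9 CPM per kb with quinpirole and 123.7 ± 22.6 CPM per kb in vehicle (SD, n = 5 each). Igfbp5 came next with quinpirole, at 34.5 ± 5.16 CPM per kb, above Igfbp3 at 20.9 ± 6.80, Igfbp6 at 17.4 ± 4.61, Igfbp4 at 17.2 ± 8.16 and Igf1 at 16.7 ± 1.09 CPM per kb. The quinpirole libraries of Igfbp5, from 30.1 to 42.5 CPM per kb, met those of Igfbp3 at the upper end of 30.9, and the ranges of Igfbp3, Igfbp6, Igfbp4 and Igf1 overlapped each other. In vehicle Igfbp5 stood at 16.3 ± 2.59 CPM per kb, between Igfbp3 at 17.1 ± 3.45 and Igf2r at 14.0 ± 1.25, with Igfbp4 at 21.0 ± 8.66 above them, and these neighbours overlapped in range. Igf1 was at 11.4 ± 1.67 CPM per kb in vehicle. Igfbp2 and Igf1r followed at 7.46 ± 2.93 and 6.87 ± 0.58 CPM per kb with quinpirole and 7.25 ± 2.81 and 7.66 ± 1.19 in vehicle, and Igf2 was lowest at 0.677 ± 0.311 CPM per kb with quinpirole and 0.454 ± 0.231 in vehicle. The transcript set used in counting is not given in the sources used here. Per kilobase of all exons joined, Igfbp7 and Igf2 stayed at the ends, Igfbp5 again had place 2 with quinpirole, and it had place 3 instead of 4 in vehicle.

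On the same per-length scale, the 6 binding protein genes added up to 197.8 ± 22.4 CPM per kb with quinpirole and 194.8 ± 20.7 CPM per kb in vehicle (SD, n = 5 each), which differed by less than the spread between libraries. Igfbp5 made up 13.4% to 20.4% of that sum in quinpirole libraries and 6.33% to 10.9% in vehicle libraries. Without Igfbp5 the sum was 163.3 ± 22 CPM per kb with quinpirole and 178.5 ± 22.7 CPM per kb in vehicle. Igfbp7 was the largest part of each sum, with means of 100.4 CPM per kb with quinpirole and 123.7 CPM per kb in vehicle. The near-equal totals thus depend largely on Igfbp7 and do not show that the other binding proteins were unchanged. A sum without Igfbp7 was not taken. These sums include the values that chose the list and are a description.

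**Figure D3:**
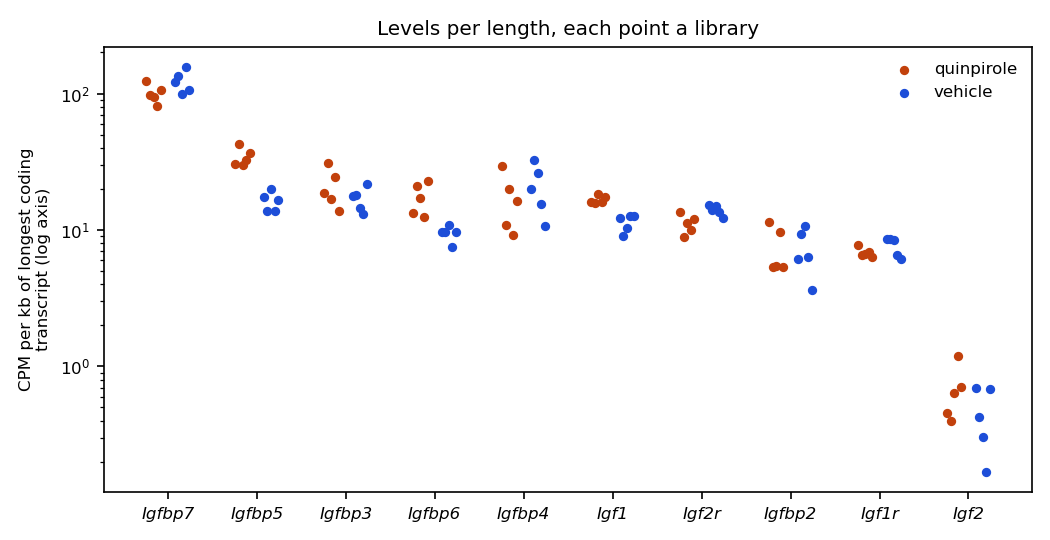
CPM per kilobase of the longest coding transcript on a log axis, 1 point per library, with quinpirole left of vehicle for each gene and genes ordered by their quinpirole mean. Igfbp7 lies near 100 CPM per kb in both groups, Igfbp5 lies at 30.1 to 42.5 with quinpirole and 13.8 to 19.9 in vehicle, and Igf2 lies below the other genes in both groups.

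The libraries differed in other tissue, which bears on these genes because bulk RNA cannot tell fewer cells of a type from less RNA per cell. Markers of whole skin were present, with summed levels of 8 basal keratinocyte genes from 9283 to 15810 CPM with quinpirole and 10170 to 17740 CPM in vehicle. The mean log2 level of 18 hair shaft genes was 7.23, 0.84, 5.04, 0.72 and 3.62 in quinpirole replicates 1 to 5, against 6.20, 7.29, 7.29, 4.48 and 0.53 in vehicle replicates 1 to 5, and 9 of the 18 were at 0 in some library. For this and the later lists, genes are counted as higher or lower by the sign of their log2 fold change. All 18 were lower and none higher with quinpirole, with a median log2 fold change of -1.68 and none called, and the groups overlapped. Igfbp4 followed this list closely. In falling order of hair genes, it measured 113.3, 77.0, 62.1, 41.5 and 35.5 CPM in quinpirole replicates 1, 3, 5, 2 and 4, against 100.4, 125.3, 76.6, 59.7 and 41.1 CPM in vehicle replicates 3, 2, 1, 4 and 5. Igfbp3, in the same order, measured 44.8, 41.2, 33.1, 74.9 and 58.8 CPM with quinpirole and 34.99, 44.0, 43.3, 31.7 and 53.0 CPM in vehicle, so the 3 libraries with the fewest hair transcripts held its 3 highest values.

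Quinpirole replicates 2 and 4 and vehicle replicate 5 were set apart from the rest by hair genes, so relations were taken over the other 7 libraries, as deviations from the group means, with an exact two-sided permutation test within groups. The relation of Igfbp4 to the hair list had Pearson's r = 0.95 (exact permutation p = 0.0139) and Spearman's rho = 0.86 (exact permutation p = 0.0556), and r was 0.88 without quinpirole replicate 5 and vehicle replicate 4, the 2 farthest from the median. For Igf1r, r was 0.92 (exact permutation p = 0.0417) and rho 0.86 (exact permutation p = 0.0764), with r = 0.81 without those 2 libraries. For Igfbp2, r was 0.87 (exact permutation p = 0.0347) and rho 0.75 (exact permutation p = 0.118), with r = 0.98 without them. Adjusted over 10 members each of these had a permutation p of 0.139, so none passed the correction. With 144 permutations a single member could not pass it alone, however strong its relation, so this failure says little of the relations. For Igfbp3, r over the 7 libraries was 0.74 (exact permutation p = 0.111) and rho 0.71 (exact permutation p = 0.125), a sign opposite to its high values in the 3 libraries left out, and r was 0.07 without the 2 farthest. For Igf1 the sign was negative, with r = -0.68 (exact permutation p = 0.0833, adjusted 0.208) and rho = -0.75 (exact permutation p = 0.0764, adjusted 0.250), and r was -0.74 without the 2 farthest. For Igfbp5, r was 0.02 (exact permutation p = 0.951) and rho 0.36 (exact permutation p = 0.465). With the hair list as a covariate the log2 fold change of Igfbp5 was 1.042, that of Igf1 0.52 and that of Igfbp6 0.78, while that of Igfbp4 changed sign, to 0.06, and that of Igf2r was -0.23. Without the 3 libraries poor in hair, left out in an alternative added once the values were seen, Igfbp5 stood at 1.01, Igf1 at 0.64 and Igfbp6 at 0.84.

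**Figure D4:**
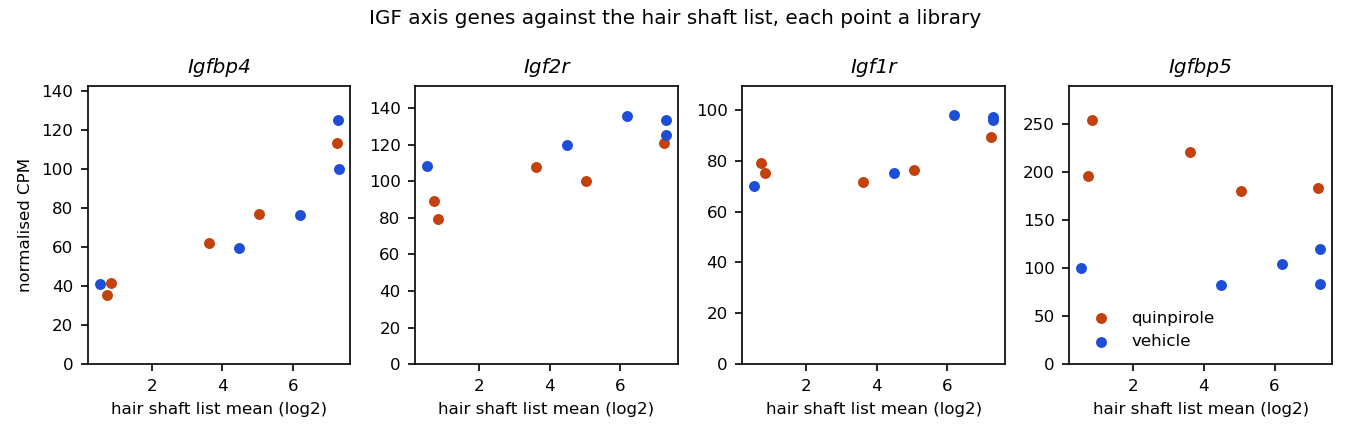
Normalised CPM of Igfbp4, Igf2r, Igf1r and Igfbp5 against the mean log2 level of 18 hair shaft genes, 1 point per library, with quinpirole in red and vehicle in blue. Igfbp4 climbs from 35.5 to 125.3 CPM along the axis with both groups on a common band. The groups of Igfbp5, the gene that chose the list, do not overlap, so they would lie apart along any axis. Its panel is a description.

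Skeletal muscle, which lies under the dermis, was another tissue that moved with the groups. Its 14 markers were all higher with quinpirole, with a median log2 fold change of 1.17 and none called. They summed to between 1108 and 5335 CPM with quinpirole and between 541 and 1999 CPM in vehicle. With the mean of this list as a covariate, the log2 fold change was 1.01 for Igfbp5, 0.49 for Igf1, 0.78 for Igfbp6, -0.01 for Igfbp7 and 0.18 for Igfbp4. The 12 fibroblast markers were split, with 6 higher and 6 lower and a median log2 fold change of 0.08. They summed to between 5121 and 7519 CPM with quinpirole and between 4884 and 8028 CPM in vehicle. With the fibroblast list as a covariate Igfbp5 stood at 1.096, Igf1 at 0.50 and Igfbp6 at 0.73. Endothelial markers had a median of -0.42 (3 higher and 7 lower, none called), macrophage markers 0.30 (9 higher, 1 lower) and sebaceous markers 0.56 (12 of 12 higher). Dermal papilla markers had a median of -0.29 (2 higher and 7 lower), melanocyte markers -0.85 (7 of 7 lower) and neutrophil markers -0.55 (2 higher and 5 lower). No gene of these lists was called, and the ranges of the groups overlapped for each list. With the endothelial list as a covariate Igfbp5 stood at 1.056 and Igf1 at 0.68. Which cells carried the added Igfbp5 transcripts was not tested.

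Within the groups, no relation of a member to Igfbp5 passed correction. The deviations of Igfbp6 from its group means went with those of Igfbp5 over the 10 libraries (Pearson's r = 0.67, exact permutation p = 0.0403, and Spearman's rho = 0.70, exact permutation p = 0.0178), and r was 0.70 without vehicle replicates 2 and 4. Adjusted over 9 members the permutation p was 0.363 for r and 0.160 for rho, so the relation did not pass the correction. For Igf1 r was -0.07 (exact permutation p = 0.863) and rho -0.32 (exact permutation p = 0.419), and with 1 library left out r ran from -0.64 without vehicle replicate 2 to 0.13 without vehicle replicate 3. The r of the other members with Igfbp5 lay between -0.53 for Igfbp7 (exact permutation p = 0.148; rho -0.49, exact permutation p = 0.180) and 0.30 for Igfbp3 (exact permutation p = 0.422; rho 0.33, exact permutation p = 0.358). Among 9886 other genes with a mean of at least 10 CPM, those whose deviations were most like those of Igfbp5 over the 10 libraries, by Pearson's r, were Ssh1 (0.89), a cofilin phosphatase, Cdc42bpb (0.88), a kinase bound by CDC42, and Cog3, Axl and Atg16l1 (0.85 each), which act in Golgi trafficking, as a receptor tyrosine kinase and in autophagy. These 5 were picked from many for their likeness, and their own log2 fold changes ran from -0.17 to 0.23 with none called.

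The wider pathway was read from 71 further genes, of which 68 were in the table and 66 were tested. None was called in either direction (0 of 66 by limma, where 0.0206% of all genes were, so the count says nothing of the pathway). By the sign of the log2 fold change 31 were higher and 35 lower with quinpirole. The median log2 fold change was -0.01, against 0.00 over all 14548 genes. Igfbp1, the liver-derived binding protein, was looked for and was not among the symbols. Igfals, the acid-labile subunit that stabilises complexes of IGF with IGFBP-3 or IGFBP-5, measured 3.32 ± 0.26 CPM with quinpirole and 2.13 ± 0.55 CPM in vehicle (SD, n = 5 each; log2 fold change 0.48, limma adjusted p = 0.259). Its groups did not overlap, from 3.06 to 3.62 CPM with quinpirole and from 1.51 to 2.99 CPM in vehicle, on 127 and 79 reads in all. It was the only tested gene of the 66 with separate groups, where 1.34% of all genes had them with quinpirole higher and 0.859% with quinpirole lower, so the count was near the background.

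Of the genes of growth hormone action, which induces Igf1 in many tissues, 5 of 5 had positive log2 fold changes and none was called. Among all 14548 genes tested, 7215 had positive log2 fold changes. Their log2 fold changes ran from 0.03 to 0.48 with a median of 0.33. Ghr, the receptor described next, reached 196.4 CPM in quinpirole replicate 4 and at most 150.5 CPM in the other quinpirole libraries. A link of these genes to the level of Igf1 was not tested. The growth hormone receptor Ghr averaged 154.2 ± 24.0 CPM with quinpirole and 122.8 ± 18.05 CPM in vehicle (log2 fold change 0.33, limma adjusted p = 0.340), and the feedback inhibitor Socs2 15.1 ± 6.97 CPM with quinpirole and 10.4 ± 4.59 CPM in vehicle (0.48, limma adjusted p = 0.607). Proteases that free IGF from its binding proteins, and their inhibitors, were split, with 3 higher, 5 lower and a median of -0.02. Pappa, which encodes PAPP-A, had a log2 fold change of 0.03, its inhibitor Stc2 0.19 and the serine protease Htra1 0.08, with limma adjusted p from 0.763 to 0.991. Partners of the binding proteins included the matrix protein Thbs1 at 0.29 (limma adjusted p = 0.687) and Tmem219, a receptor of IGFBP-3, at -0.11 (limma adjusted p = 0.803). The insulin receptor Insr stood at -0.02. Downstream of the receptors, the docking proteins Irs1 and Irs2 stood at 0.03 and -0.28, the adaptor Grb10 at -0.07 and the transcription factor Foxo1 at -0.16. For Insr and these genes limma adjusted p ran from 0.302 to 0.967. The 18 genes of PI3K, AKT, mTOR and FOXO lay between -0.19 and 0.26 and the 7 of RAS and ERK between -0.22 and 0.10. RNA levels say nothing of the activity of these proteins.

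**Figure D5:**
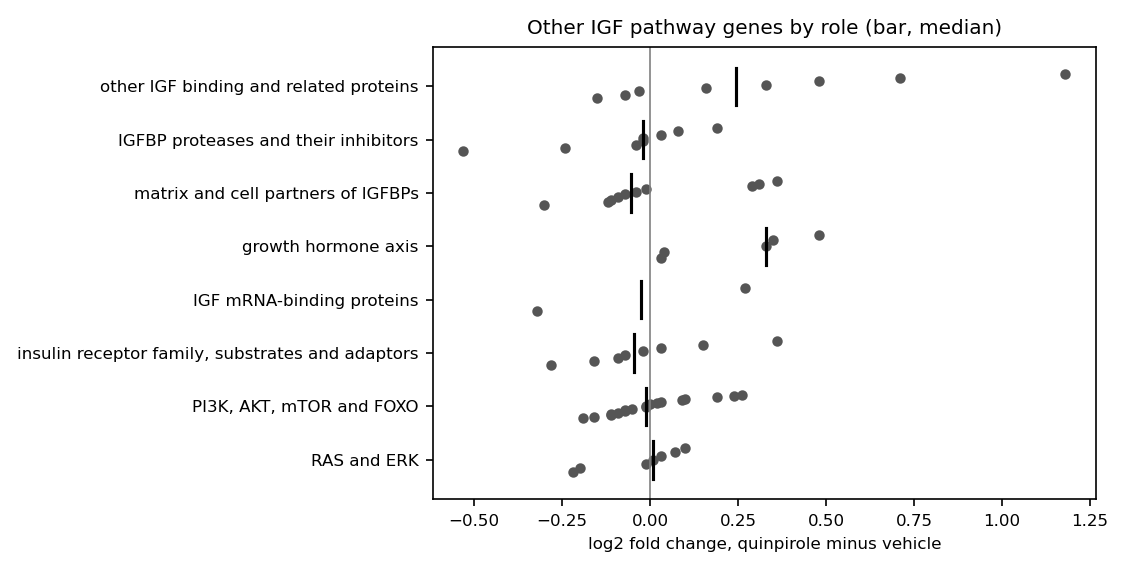
Log2 fold change, quinpirole minus vehicle, of 66 further IGF pathway genes by role, 1 point per gene, with a bar at the median of each role. The medians run from -0.05 to 0.33, the highest being growth hormone action, and no gene was called.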

How the data were processed

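RNA of whole skin was measured in 5 quinpirole and 5 vehicle samples; ribosomal RNA was depleted and strand-keeping libraries were made, per the labels' protocols. The values are signal, normalised counts for 17016 symbols as deposited by the authors. The submitters' processing notes name Trimmomatic 0.38, RSEM 1.3.0, Bowtie2, edgeR and mm10, with no role or order; how strand was used in counting is not given in the sources used here. Each column was made of whole multiples of 1 step in 100% of its values (tolerance 1e-06), so reads could be recovered, from 6763367 to 8361877 per library, and 1 read was worth 0.119 to 0.146 CPM. The scaling equalled TMM effective library sizes (largest relative difference 5.55e-16), so values were used as CPM without change. The closest libraries within a group had a chi-square of 6.55 per gene, so none was a repeat.

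Genes reaching 1 CPM in at least 5 libraries (14548) were tested on log2 of CPM plus 1 with limma 3.58.1 (mean-variance trend, two-sided, no covariate, R 4.3.3), with Benjamini-Hochberg adjustment over all of them and a threshold of 0.05. edgeR 4.0.16 (quasi-likelihood) and DESeq2 1.42.0 were run on recovered reads as alternatives. limma was also run on simulated counts for the comparison of quinpirole with vehicle (14548 genes, 200 changed, 5 sets). There it found 68.6% of the 2-fold and 93.0% of the 4-fold changes, and 4.38% of calls were unchanged genes. In the measured libraries limma called 3 of the 14548 genes. The share of 2-fold or 4-fold changes that it could find in the measured libraries was not tested. Other alternatives were pseudocounts of 0.1 and 5, filters, scaling, variance models, the replicate number as a block, covariates from the mean of a marker list, and fits without each library in turn. The members and lists were chosen with earlier results of these data known, and the relations to the hair list were added after seeing the data. Genes named are the members, 15 pathway genes fixed by name (1 of them is not reported here), genes called over the whole table (those outside the lists are not described), the neighbours of Igfbp5 and the 5 genes most like it within groups; the antisense gene Airn and the CCN genes were added after their values were seen. Positions are from GENCODE M21 and promoter windows from RefSeq, both on mm10, in which all 10 members matched. Relations were tested over 14400 permutations of 10 libraries or 144 of 7. The labels name no batch.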

Additional observations from a re-analysis of the deposited data

Results flagged for a closer look

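Each group of 5 libraries was examined for a library far from the rest, over the 10 members and 14 named pathway genes (48 groups, of which chance flags about 1 in 20). No member was flagged, and 3 pathway genes were, each in the quinpirole group. Pappa was 25.1 CPM in quinpirole replicate 1, against 6.61 to 11.9 CPM in the other 4. Ghr was 196.4 CPM in quinpirole replicate 4, the library with the highest skeletal muscle sum, against 139.2 to 150.5 CPM in the other 4. Insr was 96.0 CPM in quinpirole replicate 5, against 76.6 to 79.7 CPM in the other 4.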

How the results depend on the processing

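The log2 fold change of Igfbp5, refitted on the values that chose the list, lay between 0.998 and 1.15 in 27 of 27 alternatives. The value of 1.08 with the replicate block could not differ from the main fit, as every replicate number is present in both groups. The filters and the fit without a trend could not move the estimate either. The deviations of same-numbered libraries correlated at 0.220, -0.238, 0.194, 0.127 and 0.095. Of 5 quinpirole libraries, 0 correlated best with the vehicle library of its own number. No clear pairing by number was seen, but 5 pairs are too few to exclude it. With the block 0 genes were called in place of 3. Genes called were 219 by DESeq2, 5 by edgeR, 21 with array weights, 20 with the fibroblast, 13 with the hair, 3 with the adipocyte and 0 with the muscle or endothelial covariate, 9 without a trend, 6 without a filter, 5 with the 5 CPM filter or a pseudocount of 0.1, 1 with upper-quartile scaling, and 0 to 10 without 1 library (10 without vehicle replicate 5). Members other than Igfbp5 called were 0, except 1 (Igf1) with array weights and 2 (Igf1 and Igfbp6) by DESeq2; pathway genes called were 0 in each alternative.

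Signs turned for Igfbp2 (-0.17 with array weights, -0.25 with the endothelial covariate, -0.172 without the 3 hair-poor libraries, -0.15 to 0.19 without 1 library), Igfbp4 (0.062 with the hair and 0.18 with the muscle covariate) and Igf2 (-0.18 with the muscle covariate). Igf2 gave no value under the 5 CPM filter. Without 1 library the within-group r with Igfbp5 ran from -0.11 to 0.51 for Igfbp3, -0.64 to 0.13 for Igf1, -0.28 to 0.32 for Igf2, -0.22 to 0.18 for Igf1r and -0.45 to 0.19 for Igf2r. Without the 2 farthest libraries it was -0.47 for Igf2 and -0.047 for Igf1r, and with the hair list removed -0.067 for Igf2. The r of Igfbp5 with the hair list was -0.036 without the 2 farthest libraries and ran from -0.41 to 0.40 without 1 library. The cause was not tested. Depth limits Igf2, Igfals and Igfbp2, at 79 to 380 reads per group.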

Other observations

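The members of the CCN family, matrix proteins with an IGFBP-like domain, were not alike. Wisp2 averaged 6.84 ± 2.59 CPM with quinpirole and 2.63 ± 1.60 CPM in vehicle (SD, n = 5 each), which is 1.18 on the log2 scale, the largest of the 66 pathway genes, with limma adjusted p = 0.232. Nov averaged 9.74 ± 4.33 CPM with quinpirole and 5.51 ± 2.24 CPM in vehicle (log2 fold change 0.71, limma adjusted p = 0.342). Cyr61, Ctgf and Wisp1 had log2 fold changes of 0.33, -0.03 and -0.07. The groups overlapped for each of the 5, and they are named here after their values were seen.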
